A study of Mus musculus with 6 samples.

Results

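The genes of glucose and glycogen handling were followed in 6 mouse livers: 33 genes, taken by their symbols from the 20140 genes of the count table and placed in 4 groups by role. They comprised 6 gluconeogenic genes, 6 genes of hepatic glycolysis and sugar entry, 15 genes of general glycolysis and 6 glycogen genes. All 33 were listed and all 33 passed the filter on low counts that left 16370 genes for testing. The livers came from BALB/c mice 6 to 10 weeks old, taken on day 21 after surgery, with 2 biological replicates in each of 3 groups, so that each p-value rests on the spread between 2 livers a group. Sham mice received PBS in place of tumor cells. PMN livers (premetastatic niche, labelled intra-C) came from mice that carried CT26 colon carcinoma cells implanted in the cecum, and metastasis livers (labelled intra-S) from mice given CT26 cells into the spleen. CT26 is an established BALB/c colon carcinoma line. The library names give only sham, intra-C or intra-S with the day, so cell line and route were read from the study's description of its models. The inoculation route differed between the 2 tumor groups, so route and stage cannot be told apart. Each library was made from polyadenylated RNA of all liver cells, tumor cells included where present, and CT26 RNA maps to the mouse genome like that of the host, so its share was not tested. Sex, feeding and hour of collection are not given in the sources used here.

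Hepatocytes run glucose metabolism in both directions. In the fasted state they make glucose from lactate, alanine and glycerol through pyruvate carboxylase, phosphoenolpyruvate carboxykinase, fructose-1,6-bisphosphatase and glucose-6-phosphatase, and in the fed state they take up sugar through GLUT2, phosphorylate it and store it as glycogen. They use liver forms of several enzymes (liver phosphofructokinase and liver pyruvate kinase among them), whereas leukocytes, endothelium, proliferating cells and tumor cells rely on GLUT1, hexokinases 1 to 3, aldolase A and pyruvate kinase M.

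The libraries held 32838321 to 43368309 counts, so that 3 counts, the most that a true level could still give at a count of 0, corresponded to 0.0679 to 0.0928 CPM (counts relative to the size of the library). Levels of 1 gene between livers are given as TMM-scaled CPM, and levels of different genes as the deposited TPM, which also divides by transcript length. The 10 hepatocyte markers (albumin and 9 others) summed to 111860 to 190393 CPM, so that every library was liver by its markers. Both metastasis livers, at 190393 and 138184, lay above both sham livers in this sum. Albumin made up most of it, at 94260 and 87423 CPM in sham and 156594 and 108439 in metastasis livers. Of the 10 markers, 6 were fitted above sham and 4 below in metastasis, where only Cyp2e1 was called, lower. In PMN 5 were fitted above and 5 below, and none was called. Transcripts of several other cell types were higher in tumor-bearing mice: the 11 neutrophil markers summed to 3.84 and 4.89 CPM in sham, 280.2 and 591 in PMN and 1042 and 409 in metastasis, and all 11 were called in both comparisons. The 10 monocyte and macrophage markers went from 152 and 155 CPM in sham to 504 to 855 in the tumor groups, with 8 called in each. The 6 endothelial markers summed to 79.8 and 89.1 CPM in sham, 225 and 240.2 in PMN and 334 and 199 in metastasis livers, with 3 called in PMN and 4 in metastasis. The 4 B cell markers lay below sham in both PMN livers, at 2.96 and 3.15 CPM in sham, 0.968 and 1.36 in PMN and 1.63 and 3.34 in metastasis, and none was called. Metastasis liver 1 stood apart from its partner: 28.7% of all tested genes differed over 2-fold between the metastasis livers, against 11.04% between sham and 15.3% between PMN livers, and its 10 erythroid markers summed to 1737 CPM, against 1205 in metastasis liver 2 and 230.5 and 412 in sham. Mitochondrial genes took 5.61% and 5.35% of counts in sham, 2.93% and 2.45% in PMN, 5.62% in metastasis liver 1 and 3.02% in metastasis liver 2, and the part of this difference in the results was not tested.

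Against sham, 3 of the 33 members were called higher and 0 lower in PMN livers, and 7 higher and 1 lower in metastasis livers (edgeR's quasi-likelihood test, Benjamini-Hochberg over all tested genes, adjusted p under 0.05). Over all genes tested the same test called 4.92% higher and 2.38% lower in PMN livers, and 6.78% higher and 3.95% lower in metastasis livers. At an unadjusted p under 0.05, 10 members were higher and 2 lower in PMN livers, and 13 higher and 4 lower in metastasis livers, against 15.2% and 11.8% of all tested genes in PMN and 17.2% and 13% in metastasis. DESeq2 called 6 higher and 1 lower in PMN (10% and 6.31% of all genes to which it gave an adjusted p), and 11 higher and 2 lower in metastasis (11.5% and 8.03%). Library sizes in place of TMM gave 3 higher and 1 lower in PMN and 6 higher and 4 lower in metastasis, and limma on log2(TPM + 1) gave 2 and 1, and 3 and 4. Of the main calls limma lost Hk3 in PMN and Hk1, Hk3, Pfkp and Aldoa in metastasis, and library sizes lost Hk3 in metastasis. Over all genes the library sizes called 3.48% higher and 4.89% lower in PMN and 5.12% and 6.81% in metastasis, and limma 3.04% and 5.47%, and 4.18% and 9.49%. Every higher call of the main test was a gene of general glycolysis, and the lower call was a glycogen gene. Both comparisons use the same 2 sham livers. In bulk tissue, more cells of a type and more RNA per cell cannot be told apart for any of these genes.

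The counts depended on which livers were fitted. That choice changed the estimate of spread, the genes tested and, where a liver was left out, the mean of its group. Fitted on the 4 PMN and sham livers alone, 9 members were called higher and 7 lower in PMN, including the 3 of the main test, where that fit called 16.3% of all genes higher and 14.2% lower. The 4 metastasis and sham livers alone gave only Pkm and Ldha, both higher (1.75% and 0.734% of all genes). Leaving out metastasis liver 1 or metastasis liver 2 likewise gave 9 and 7 in PMN, with 14.5% or 14.4% of all genes higher and 12% lower. Without metastasis liver 1 all 8 calls in metastasis were kept, with 7 higher and 5 lower (9.58% and 6.93% of all genes), and without metastasis liver 2 the fit called 21 members higher and 5 lower (17.3% and 15.4%). Leaving out either PMN liver gave no call among the members in PMN (0.352% or 0.323% of all genes higher and 0.017% or 0.0227% lower) and 2 higher in metastasis (2.13% or 1.97% higher and 0.954% or 0.817% lower), and without sham liver 1 or sham liver 2 no gene of the whole table was called.

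**Figure D1:**
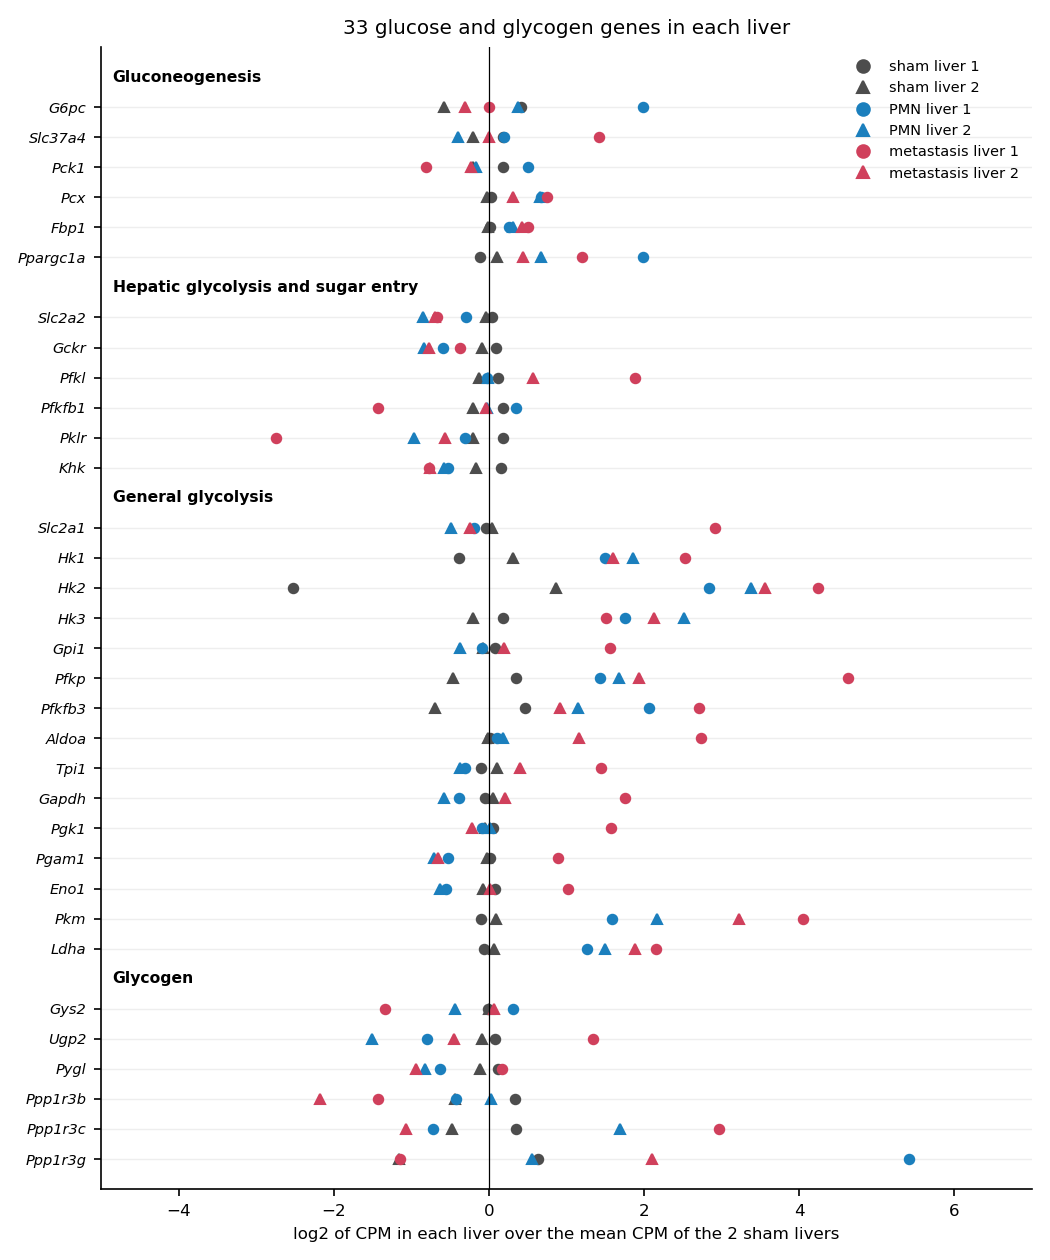
Each point is 1 liver, placed by the log2 of its CPM over the mean CPM of the 2 sham livers (horizontal axis), for 33 genes in 4 groups by role (vertical axis). Pkm, Ldha, Hk1, Hk2, Hk3 and Pfkp lie to the right of both sham livers in all 4 tumor-bearing mice, while metastasis liver 1 is alone on the right for Slc2a1, Pgk1, Pgam1, Eno1 and Ugp2.

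The members spanned a wide range of abundance. In sham livers the gluconeogenic enzymes led at 2832 ± 538 TPM for Pck1 and 1394 ± 21.9 TPM for Fbp1 (mean ± SD, n = 2), followed by Khk at 527 ± 83.3 TPM. At the other end stood the hexokinases and Pfkp, at 0.0802 ± 0.0938 TPM for Hk2, 0.221 ± 0.0870 for Pfkp, 0.678 ± 0.225 for Hk1 and 0.950 ± 0.178 for Hk3. Summed over the group, general glycolysis held 1509 and 1528 TPM in sham, 1356 and 1495 in PMN and 3765 and 1887 in metastasis livers. On the TMM-scaled CPM used between livers the PMN livers lay on the other side of sham, with sums of 1695 and 1704 in sham, 2167 and 2320 in PMN and 5793 and 3146 in metastasis livers, so the direction of the PMN sum depends on the scale. The hepatic glycolysis and sugar entry genes summed to 1142 and 955 TPM in sham, 669 and 597 in PMN and 522 and 560 in metastasis livers, with no overlap between sham and either tumor group. Gluconeogenic genes summed to 4339 to 5375 TPM in sham and 3619 to 6232 TPM in the tumor groups, which overlapped.

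Pyruvate kinase and lactate dehydrogenase, at the end of glycolysis, gave the clearest increases. Pkm, which encodes the muscle and proliferation-associated pyruvate kinase M, lies at chr9:59656576-59679372 (GRCm38). It was measured at 10.003 and 11.4 CPM in sham, 32.0 and 47.9 in PMN and 177 and 99.7 in metastasis livers. The 3 groups did not overlap, and the lowest metastasis liver was 8.74 times the highest sham liver. Pkm rose by 1.90 ± 0.35 (log2 fold change ± SE, 3.73-fold, adjusted p = 0.0315) in PMN and by 3.69 ± 0.37 (12.9-fold, adjusted p = 0.00614) in metastasis livers. Without metastasis liver 1 the increase in metastasis was 3.22 (adjusted p = 0.000515).

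Ldha, the lactate dehydrogenase subunit that favors the reduction of pyruvate to lactate, lies at chr7:46842274-46855627. Its CPM was 421 and 461 in sham, 1058 and 1242 in PMN and 1962 and 1634 in metastasis livers, again without overlap between any groups and close between partners. The log2 fold change was 1.38 ± 0.22 in PMN (2.61-fold, adjusted p = 0.0232) and 2.03 ± 0.23 in metastasis (4.07-fold, adjusted p = 0.00782), or 1.89 (adjusted p = 0.000616) without metastasis liver 1. In TPM, Ldha lay below Khk in sham (186 ± 11.6 against 527 ± 83.3) and above it in metastasis livers (614 ± 49.4 against 253 ± 13.5). Its partner subunit Ldhb stayed scarce, so that Ldha made up 96.6% to 99.2% of the summed TPM of both in every liver.

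The make-up of the pyruvate kinase family shifted towards Pkm. Pklr, which encodes liver pyruvate kinase, was at 179 and 137 CPM in sham, 128 and 80.5 in PMN and 23.7 and 106 in metastasis livers. All 4 tumor-bearing mice lay below both sham livers, yet the fitted differences of -0.60 ± 0.64 and -1.28 ± 0.65 (log2) were not called (adjusted p = 0.594 and 0.240), and the latter was -0.56 without metastasis liver 1 (adjusted p = 0.249) and -2.74 without metastasis liver 2 (adjusted p = 0.00154). Of the TPM of Pklr and Pkm together, Pkm held 4.15% and 6.04% in sham, 16.2% and 31.5% in PMN, and 85.3% and 42.0% in metastasis livers. These shares hold for the reads as counted: 34.4% of the 50-base stretches of the longest coding Pkm transcript also occur in other genes. Of Pkm exon sequence, 15.3% overlaps Gm49759 on the same strand. About 22.0% of Pklr exon sequence lies opposite exons of Hcn3 on the other strand, and the strand setting of the counting is not given. The same holds for 11.5% of Gpi1 (opposite Gm26762) and 5.58% of Pfkp (opposite Pitrm1).

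Hexokinases 1 to 3, which phosphorylate glucose in most cells other than hepatocytes, were scarce in sham and higher in each tumor-bearing mouse. Hk1 counted 1.23 and 1.99 CPM in sham, 4.56 and 5.85 in PMN and 9.27 and 4.88 in metastasis livers. Hk2, the insulin-responsive and tumor-associated form, had 0.0493 and 0.521 CPM in sham, 2.04 and 2.97 in PMN and 5.40 and 3.36 in metastasis. Hk3, a form of myeloid cells, had 1.65 and 1.27 CPM in sham, 4.94 and 8.35 in PMN and 4.17 and 6.35 in metastasis. For each of the 3 genes all 4 tumor-bearing mice exceeded both sham livers.

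In metastasis livers Hk1 rose by 2.13 ± 0.44 (log2, adjusted p = 0.0327), Hk2 by 3.91 ± 0.87 (adjusted p = 0.0400) and Hk3 by 1.85 ± 0.40 (adjusted p = 0.0380). In PMN livers Hk3 rose by 2.18 ± 0.41 (adjusted p = 0.0320), while the fitted differences of Hk1 and Hk2 were 1.69 ± 0.43 and 3.10 ± 0.85 (adjusted p = 0.0681 and 0.0791). DESeq2 and the fit of PMN and sham livers alone called both higher in PMN. The size of the Hk2 difference is loosely fixed, since sham liver 1 held 2 counts of it. The neutrophil and macrophage marker sums moved in the same direction as the 3 hexokinases, and their part in this result was not tested.

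**Figure D2:**
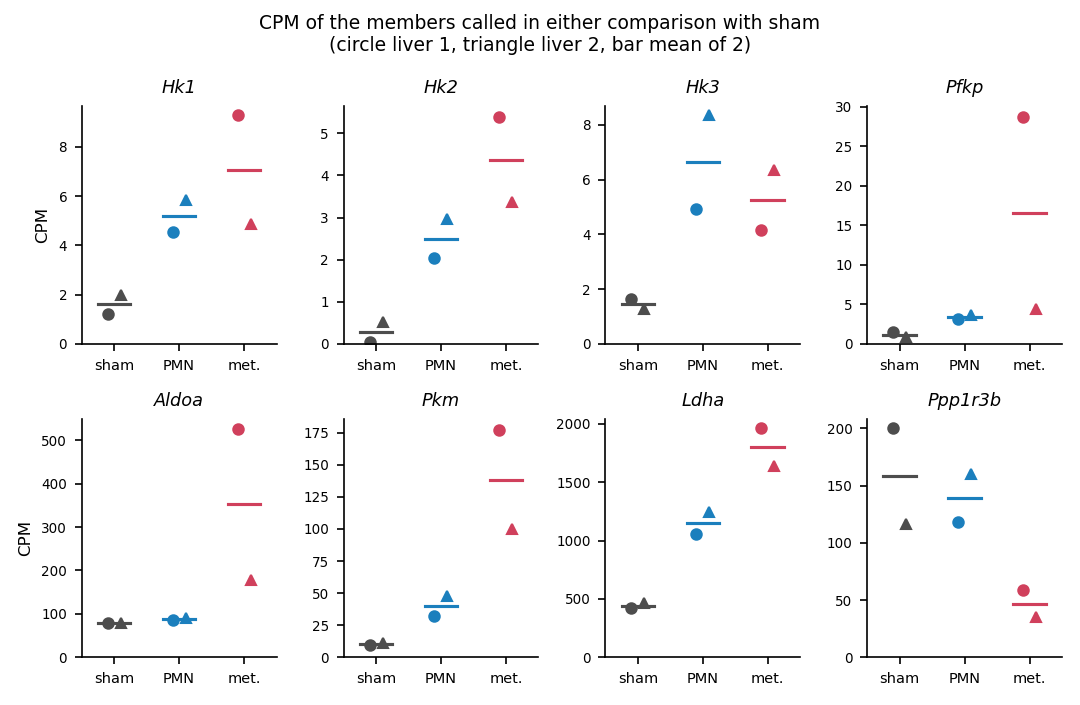
CPM (vertical axis, from 0) of the 8 members called in at least 1 comparison with sham, for 2 livers in each of 3 groups. Circles are liver 1, triangles liver 2 and bars the mean of 2. Ldha and Pkm step up from sham to PMN to metastasis, and Ppp1r3b is low in both metastasis livers at 58.8 and 34.9 CPM.

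Phosphofructokinase, which commits fructose 6-phosphate to glycolysis, was represented by its platelet and liver forms. Pfkp, the platelet form, had 1.48 and 0.838 CPM in sham, 3.13 and 3.71 in PMN, 28.8 in metastasis liver 1 and 4.42 in metastasis liver 2. It rose by 3.84 ± 0.88 (log2, adjusted p = 0.0431) in metastasis livers, and by 1.94 (adjusted p = 0.0226) without metastasis liver 1, while the PMN difference of 1.56 ± 0.83 was not called (adjusted p = 0.279). Pfkl, the liver form, was at 43.9 and 37.1 CPM in sham, 39.9 and 40.1 in PMN and 149 and 60.1 in metastasis livers, a fitted difference of 1.37 ± 0.41 in metastasis (adjusted p = 0.0832). It was 0.57 without metastasis liver 1 (adjusted p = 0.0626) and 1.88 without metastasis liver 2 (adjusted p = 0.000403), and DESeq2 called Pfkl higher in metastasis. Pfkl remained the main form, at 70.5% to 86.6% of the TPM of Pfkl, Pfkp and Pfkm, and Pfkp did not pass 5.79%.

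Among the bifunctional enzymes that set the level of fructose 2,6-bisphosphate, the activator of phosphofructokinase, the inducible Pfkfb3 was at 9.04 and 4.03 CPM in sham, 27.3 and 14.4 in PMN and 42.8 and 12.3 in metastasis livers. All 4 tumor-bearing mice were above both sham livers, with fitted differences of 1.68 ± 0.67 and 2.08 ± 0.68 (log2, adjusted p = 0.173 and 0.101). The metastasis value was 0.92 without metastasis liver 1 (adjusted p = 0.260) and 2.72 without metastasis liver 2 (adjusted p = 0.00632), and DESeq2 called Pfkfb3 higher in metastasis on all 6 livers. The liver form Pfkfb1 was at 29.3 to 42.8 CPM in 5 of 6 livers and at 12.4 CPM in metastasis liver 1. The Pfkfb3 share of the TPM of the 4 isoenzymes was 7.40% and 4.32% in sham, 15.7% and 10.02% in PMN and 36.9% and 11.2% in metastasis livers.

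Aldolase A (Aldoa), the form outside the liver, lies at chr7:126795234-126800994 and was at 80.1 and 78.6 CPM in sham, 85.1 and 90.3 in PMN and 526 and 178 in metastasis livers. Both metastasis livers were at least 2.22 times the highest sham liver. The gene rose by 2.15 ± 0.48 (log2, 4.44-fold, adjusted p = 0.0405) in metastasis, and by 1.17 (adjusted p = 0.00290) without metastasis liver 1.

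GLUT1 (Slc2a1), the glucose transporter of most cells outside the hepatocyte, was set apart by 1 liver. It had 7.61 and 8.08 CPM in sham, 6.88 and 5.57 in PMN, 59.0 in metastasis liver 1 and 6.60 in metastasis liver 2. The fitted difference of 2.06 ± 0.87 in metastasis (log2, adjusted p = 0.169) turned to -0.25 (adjusted p = 0.566) without metastasis liver 1 and was 2.91 (adjusted p = 0.000163) without metastasis liver 2, while DESeq2 called it higher on all 6 livers. Red cell transcripts were highest in the same liver: the 10 erythroid markers summed to 1737 CPM there, 1205 in metastasis liver 2 and 230.5 to 412 in sham and PMN livers. Metastasis liver 2 thus lay above sham in this sum and below sham in Slc2a1. The part of such cells in the GLUT1 value was not tested. The hepatocyte transporter GLUT2 (Slc2a2) was at 269 and 257 CPM in sham, 215 and 146 in PMN and 166 and 163 in metastasis livers.

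The enzymes between aldolase and pyruvate kinase, which every glycolytic cell uses, followed another course. Triose phosphate isomerase (Tpi1) was at 271 and 313 CPM in sham, 236 and 226 in PMN and 794 and 384 in metastasis livers. Glyceraldehyde-3-phosphate dehydrogenase (Gapdh) was at 29.4 and 31.5 CPM in sham, 23.3 and 20.4 in PMN and 103 and 35.1 in metastasis livers. Glucose-6-phosphate isomerase (Gpi1), which acts upstream of aldolase, was at 190 and 171 CPM in sham, 169 and 140 in PMN and 531 and 207 in metastasis livers. For these 3 genes both PMN livers lay below, and both metastasis livers above, the 2 sham livers. No difference from sham was called by edgeR on all 6 livers, and DESeq2 called Tpi1 higher in metastasis. The fitted log2 values in PMN were -0.34 ± 0.35, -0.48 ± 0.46 and -0.22 ± 0.42 (adjusted p = 0.577, 0.546 and 0.772) and in metastasis 1.01 ± 0.35, 1.18 ± 0.46 and 1.03 ± 0.43 (adjusted p = 0.115, 0.148 and 0.163). The latter were 0.40, 0.21 and 0.20 without metastasis liver 1 (adjusted p = 0.129, 0.452 and 0.492), and 1.44, 1.75 and 1.56 without metastasis liver 2, when all 3 were called (adjusted p = 0.000839, 0.000483 and 0.00100).

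Enolase 1 (Eno1) and phosphoglycerate mutase (Pgam1) were also lower in both PMN livers than in sham. Eno1 was at 277 and 248 CPM in sham, 179 and 169 in PMN and 534 and 264 in metastasis livers, a PMN difference of -0.59 ± 0.34 (log2, adjusted p = 0.315). Pgam1 was at 112 and 109 CPM in sham, 76.5 and 67.9 in PMN and 205 and 70.2 in metastasis livers, a PMN difference of -0.61 ± 0.46 (adjusted p = 0.436). Phosphoglycerate kinase (Pgk1) overlapped, at 283 and 263 CPM in sham, 258 and 276 in PMN and 813 and 234 in metastasis livers. When only the 4 PMN and sham livers were fitted, Gapdh, Pgam1 and Eno1 were called lower and Tpi1, Gpi1 and Pgk1 were not. The Pgam1 difference in metastasis was 0.31 ± 0.46 (adjusted p = 0.684), and it changed sign to -0.65 (adjusted p = 0.0388) without metastasis liver 1 and was 0.89 (adjusted p = 0.00610) without metastasis liver 2.

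In PMN livers the 15 genes of general glycolysis divided: 8 were above sham in both livers (Hk1, Hk2, Hk3, Pfkp, Pfkfb3, Aldoa, Pkm and Ldha) and 6 below sham in both (Slc2a1, Gpi1, Tpi1, Gapdh, Pgam1 and Eno1), with a median log2 fold change of 0.14 against 0.01 over all tested genes. In metastasis livers 11 of the 15 were above sham in both livers and 0 below, and the median was 2.03 against 0.04 over all tested genes. That median was 0.92 without metastasis liver 1, with 12 of the 15 fitted above 0 and Slc2a1, Pgk1 and Pgam1 below. Over all 33 members the groups did not overlap for 11 higher and 12 lower genes in PMN (34.4% and 34% of all tested genes) and for 15 higher and 6 lower genes in metastasis (30.4% and 30%). The PMN counts were thus near the background and the metastasis counts tilted to higher values. The fitted values of Gpi1, Tpi1, Gapdh, Pgam1 and Eno1 stayed below 0 in PMN under each of the 17 alternatives, other scalings included, whereas that of Aldoa (0.14) turned below 0 with library sizes and with limma on either log2 TPM, the lowest being -0.11.

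Many of these enzymes have near copies in the mouse genome, and only reads with a single alignment were counted. Stretches of 50 bases were taken from the longest annotated coding transcript of each member. Of these, 82.5% in Gapdh, 72.2% in Eno1, 68.0% in Pgk1, 41.5% in Pgam1, 34.4% in Pkm, 19.3% in Gpi1, 16.7% in Ldha, 13.5% in Aldoa and 7.51% in Tpi1 also occur in annotated transcripts of other genes. Levels of these 9 genes are therefore uncertain relative to other genes. The value of 35.5 ± 1.66 TPM for Gapdh in sham livers, below Aldoa at 73.8 ± 1.11 TPM, is such a level. No other member shared more than 1.22%.

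**Figure D3:**
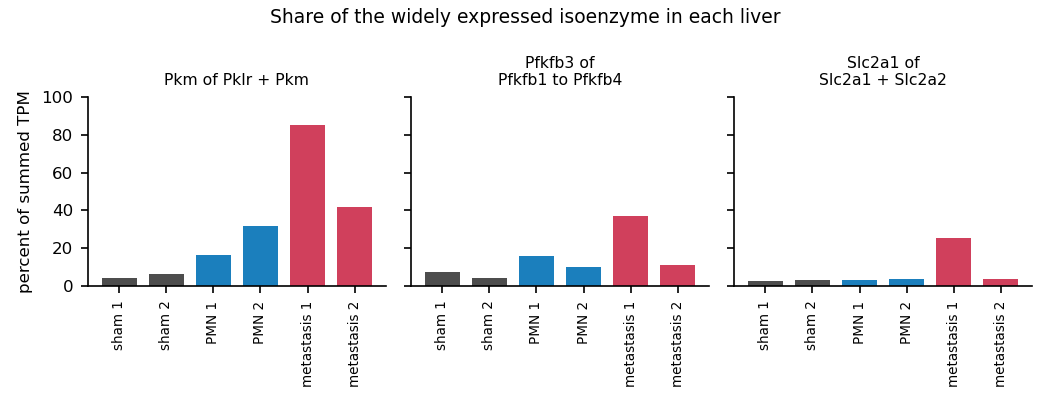
Share of the summed TPM of an isoenzyme family (vertical axis, percent, from 0 to 100) held by the form that is widespread outside hepatocytes, with 1 bar for each of 6 livers. The Pkm share is 4.15% and 6.04% in sham and 85.3% in metastasis liver 1, while the Slc2a1 share is 25.4% in metastasis liver 1 and 2.64% to 3.75% elsewhere.

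Since genes of general glycolysis are known targets of the hypoxia-inducible factors, whose binding core is ACGTG, and of E-box factors such as Myc, USF and ChREBP (CACGTG, which contains the core on both strands), the promoters were searched for these letters. RefSeq (GRCm38.p6) windows from 250 bases before to 50 after the start were given for 31 of 33 members. ACGTG was found on either strand in 18 of 31 members, in 42.6% of their 47 windows against 19.6% of all 32851 windows. It was present in 11 of 15 genes of general glycolysis and 4 of 4 glycogen genes, and in 1 of 6 hepatic and 2 of 6 gluconeogenic genes. A gene was counted if any of its windows held it, as 21.8% of all 27025 genes did. In Hk1 and Gapdh no copy lay wholly before the start. CACGTG was found in 5 members (10.6% of their windows against 7.15% of all), the cyclic AMP element TGACGTCA in 1 (Ldha, against 1.79% of all windows), the STAT motif TTCNNNGAA in 0 (8.30% of all windows) and the GC box GGGCGG in 22 (57.4% against 35.7%). Genes with and without ACGTG were both among those called higher: Hk1, Hk2, Hk3, Aldoa, Pkm and Ldha held it and Pfkp did not. The 5 windows shown let these letters be seen in place: those of 3 called genes, of Pgk1 with 2 copies, and of gluconeogenic Fbp1 without a copy. They are the 250 bases before the start, 5′ to 3′ on the gene's strand, with ACGTG or its complement CACGT in capitals: Hk2 at chr6:82774455-82774704 (minus strand), Aldoa at chr7:126799255-126799504 (minus), Pgk1 at chrX:106186850-106187099 (plus), Ldha at chr7:46845554-46845803 (plus) and Fbp1 at chr13:62888283-62888532 (minus).
Hk2: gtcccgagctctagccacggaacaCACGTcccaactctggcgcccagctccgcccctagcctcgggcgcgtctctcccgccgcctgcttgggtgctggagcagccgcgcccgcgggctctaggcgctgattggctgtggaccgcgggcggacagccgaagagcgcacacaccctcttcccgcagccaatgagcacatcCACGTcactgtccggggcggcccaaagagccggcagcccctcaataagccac
Aldoa: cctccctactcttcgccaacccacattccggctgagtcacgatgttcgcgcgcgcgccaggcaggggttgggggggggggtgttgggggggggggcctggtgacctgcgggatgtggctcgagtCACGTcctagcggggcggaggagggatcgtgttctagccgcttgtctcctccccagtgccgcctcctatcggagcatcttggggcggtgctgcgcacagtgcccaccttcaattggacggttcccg
Pgk1: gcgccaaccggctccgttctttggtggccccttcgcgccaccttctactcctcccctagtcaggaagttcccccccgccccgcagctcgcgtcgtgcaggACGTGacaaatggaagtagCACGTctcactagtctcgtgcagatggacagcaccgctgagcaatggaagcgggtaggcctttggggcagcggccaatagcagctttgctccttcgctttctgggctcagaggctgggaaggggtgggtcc
Ldha: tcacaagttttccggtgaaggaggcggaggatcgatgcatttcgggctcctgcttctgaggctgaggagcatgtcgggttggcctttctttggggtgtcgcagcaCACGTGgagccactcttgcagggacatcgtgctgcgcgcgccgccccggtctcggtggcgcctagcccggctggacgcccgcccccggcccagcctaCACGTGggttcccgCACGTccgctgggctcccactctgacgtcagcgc
Fbp1: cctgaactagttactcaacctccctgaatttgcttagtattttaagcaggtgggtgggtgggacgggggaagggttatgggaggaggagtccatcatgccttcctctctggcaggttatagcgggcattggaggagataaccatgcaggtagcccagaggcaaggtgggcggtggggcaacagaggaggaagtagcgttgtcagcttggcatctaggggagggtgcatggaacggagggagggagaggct
In Ldha the capitals fall in 3 places, with E-boxes beginning 145 and 48 bases before the start and a single core 34 bases before it. In Hk2 the cores begin 226 and 52 bases before the start, in Pgk1 150 and 131 bases and in Aldoa 126 bases. Aldoa and Ldha have further RefSeq starts. The 250 bases at chr7:126800448-126800697 (Aldoa) and chr7:46846832-46847081 (Ldha) hold no copy. A match is a description of the sequence and says nothing of binding in these livers.

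Genes of hepatic sugar entry and its control lay below sham in the tumor-bearing mice, and none passed the threshold of the main edgeR test. DESeq2 called Gckr lower in PMN and Khk lower in metastasis, and limma on log2(TPM + 1) called Gckr lower in PMN and Slc2a2, Gckr and Khk lower in metastasis. GLUT2 (Slc2a2), with the values given above, did not overlap with sham in either group and differed by -0.54 ± 0.24 in PMN and -0.68 ± 0.24 in metastasis (log2, adjusted p = 0.204 and 0.119). Gckr, which encodes a regulator of hepatic sugar phosphorylation, was at 151 and 133 CPM in sham, 93.9 and 79.8 in PMN and 110 and 83.0 in metastasis livers. Ketohexokinase (Khk), which phosphorylates fructose, was at 451 and 361 CPM in sham, 283 and 272 in PMN and 239 and 240 in metastasis livers. Both genes were below both sham livers in all 4 tumor-bearing mice.

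The fitted log2 differences of Gckr were -0.71 ± 0.23 in PMN and -0.56 ± 0.23 in metastasis (adjusted p = 0.109 and 0.156), and those of Khk -0.55 ± 0.21 and -0.76 ± 0.21 (adjusted p = 0.152 and 0.0652). Gckr and Khk were called lower in PMN when only PMN and sham livers were fitted. Their metastasis values were -0.77 and -0.75 (log2) without metastasis liver 1, and -0.37 and -0.77 without metastasis liver 2. With library sizes in place of TMM, which moved the median log2 fold change of all genes to -0.25 in PMN and -0.23 in metastasis, Gckr was also called lower in PMN, and Slc2a2, Gckr and Khk in metastasis. The median of the 6 hepatic genes was -0.55 in PMN and -0.62 in metastasis, and 4 of 6 lay below sham without overlap in each group, against 34% of all tested genes in PMN and 30% in metastasis, while Pfkl lay above sham in both metastasis livers. The 9 feeding-associated lipogenic markers used here summed to 4364 and 3661 CPM in sham, 1374 and 1401 in PMN and 754 and 989 in metastasis livers. This sum moved with the hepatic genes. Of the 9 markers, 7 were fitted below sham and 2 above in PMN, and all 9 below in metastasis. In each comparison 3 were called lower, against 2.38% of all tested genes in PMN and 3.95% in metastasis. The part of food intake was not tested.

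**Figure D4:**
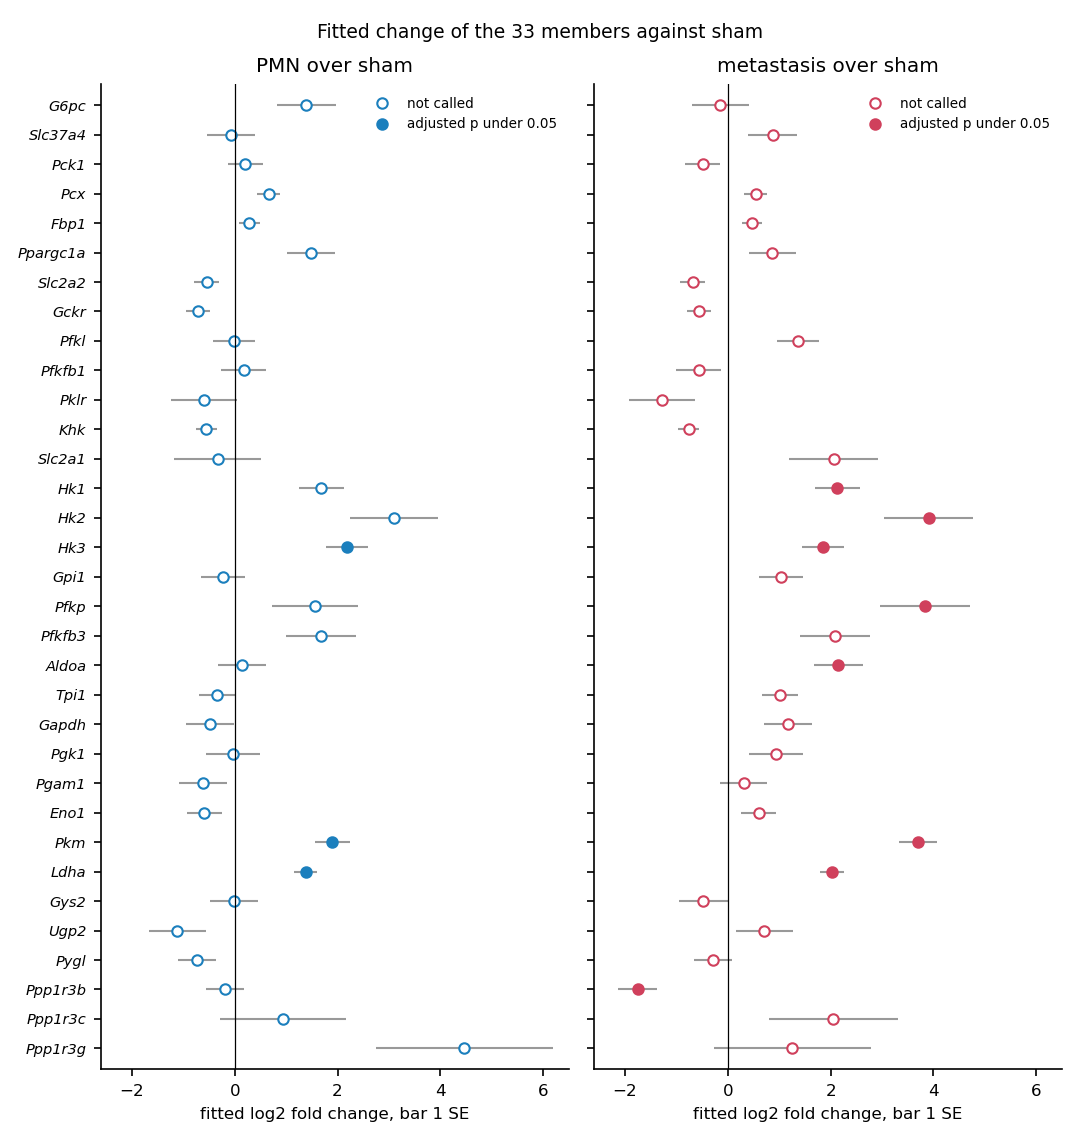
Fitted log2 fold change (horizontal axis, bars 1 SE, 2 livers a group) of each of the 33 members for PMN over sham (left) and metastasis over sham (right). Filled points passed an adjusted p under 0.05, and these are 3 genes on the left and 8 on the right, of which Ppp1r3b at -1.76 is the one below 0.

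Gluconeogenic genes were not called in either comparison by edgeR on all 6 livers, and DESeq2 called Ppargc1a higher in PMN. In PMN 3 of the 6 lay above sham without overlap, against 34.4% of all tested genes. The same 3 did so in metastasis, against 30.4%, where 1 other lay below sham (30% of all tested genes). Pyruvate carboxylase (Pcx), which makes oxaloacetate from pyruvate, was at 350 and 339 CPM in sham, 547 and 545 in PMN and 578 and 427 in metastasis livers. Fructose-1,6-bisphosphatase (Fbp1) was at 1076 and 1055 CPM in sham, 1274 and 1327 in PMN and 1513 and 1436 in metastasis livers. The coactivator gene Ppargc1a, which drives the gluconeogenic program in fasting, was at 18.7 and 21.7 CPM in sham, 80.4 and 32.2 in PMN and 46.3 and 27.3 in metastasis livers.

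Pcx differed from sham by 0.67 ± 0.22 in PMN and 0.55 ± 0.22 in metastasis (log2, adjusted p = 0.123 and 0.161), and Fbp1 by 0.29 ± 0.20 and 0.47 ± 0.20 (adjusted p = 0.398 and 0.169). Ppargc1a differed by 1.48 ± 0.46 in PMN and 0.87 ± 0.46 in metastasis (adjusted p = 0.105 and 0.257). The metastasis values without metastasis liver 1 were 0.32 for Pcx, 0.43 for Fbp1 and 0.44 for Ppargc1a (adjusted p = 0.170, 0.0630 and 0.565). Pcx and Ppargc1a were called higher in PMN when only PMN and sham livers were fitted, and Fbp1 was not. Pcx, Fbp1 and Slc37a4 were called higher in metastasis when metastasis liver 2 was left out. Of the 2 members that take pyruvate as their substrate, Pcx was thus 1.59-fold and Ldha 2.61-fold over sham in PMN livers, and Ldha alone passed the test.

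The other gluconeogenic genes overlapped with sham in PMN livers. Glucose-6-phosphatase (G6pc), which releases free glucose, was at 397 and 199 CPM in sham, 1180 and 384 in PMN and 298 and 240 in metastasis livers. PMN liver 1 was 3.07 times its partner, and PMN liver 2 lay within the sham range, so the fitted difference of 1.39 ± 0.57 (log2, adjusted p = 0.177) rests on PMN liver 1. The transporter that carries glucose 6-phosphate to this enzyme (Slc37a4) was at 149 to 225 CPM in 5 of 6 livers and at 526 CPM in metastasis liver 1. Phosphoenolpyruvate carboxykinase (Pck1) was at 3764 and 2880 CPM in sham, 4717 and 2954 in PMN and 1894 and 2838 in metastasis livers. Its metastasis difference was -0.49 ± 0.34 (log2, adjusted p = 0.373), or -0.22 without metastasis liver 1 and -0.81 without metastasis liver 2.

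PMN liver 1 also held the highest values of Ppargc1a and of the insulin- and fasting-regulated Igfbp1, which had 71.8 and 20.6 CPM in sham, 4473 and 770 in PMN and 4209 and 1388 in metastasis livers. Igfbp1 rose by 5.83 ± 1.17 in PMN and 5.92 ± 1.18 in metastasis (log2, adjusted p = 0.0382 and 0.0307). The 8 fasting-associated markers used here, Igfbp1 among them, summed to 1658 and 1425 CPM in sham, 5138 and 1605 in PMN and 4803 and 1826 in metastasis livers, and Igfbp1 carried this sum. The 7 others summed to 1586 and 1405 CPM in sham, 665 and 835 in PMN and 594 and 438 in metastasis livers, a sum lower in all 4 tumor-bearing mice. The single markers were divided: of all 8, Igfbp1 included, 4 were fitted above sham and 4 below in PMN. In metastasis 3 were fitted above and 5 below. The 13 listed circadian clock genes summed to 494 and 547 CPM in sham, 425 and 356 in PMN and 381 and 335 in metastasis livers. The part of the hour and of feeding in these differences was not tested.

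The glycogen genes included the 1 member that the main edgeR test called lower. Ppp1r3b, which encodes the liver subunit that brings protein phosphatase 1 to glycogen and activates glycogen synthase, lies at chr8:35375694-35388139. It was at 199.98 and 116 CPM in sham, 118 and 161 in PMN and 58.8 and 34.9 in metastasis livers. Both metastasis livers were below the other 4, while PMN and sham overlapped. Ppp1r3b fell by 1.76 ± 0.38 in metastasis (log2, 3.38-fold lower, adjusted p = 0.0376), and the value was -2.18 (adjusted p = 0.00913) without metastasis liver 1.

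The other targeting subunits had the largest folds between partner livers among the 33 members. Ppp1r3g, whose liver level follows fasting and feeding, was at 13.8 and 3.98 CPM in sham, 380.2 in PMN liver 1, 13.0 in PMN liver 2, and 4.02 and 38.3 in metastasis livers. PMN liver 1 was 29.2 times its partner, and the fitted difference of 4.47 ± 1.73 in PMN (log2, adjusted p = 0.161) rests on that liver. Ppp1r3c was at 23.6 and 13.3 CPM in sham, 11.2 and 59.4 in PMN and 145 and 8.76 in metastasis livers, a 16.5-fold gap between the metastasis livers. The high liver of the PMN pair and of the metastasis pair differed between these genes, and the groups overlapped.

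Enzymes of glycogen turnover were not called by edgeR on all 6 livers. Glycogen synthase 2 (Gys2) was at 214 and 216 CPM in sham, 266 and 158 in PMN and 84.7 and 224 in metastasis livers. UDP-glucose pyrophosphorylase (Ugp2), which makes the glucose donor for glycogen, was at 370 and 329 CPM in sham, 200.2 and 123 in PMN and 888 and 256 in metastasis livers, and differed by -1.11 ± 0.56 in PMN (log2, adjusted p = 0.257). Liver glycogen phosphorylase (Pygl), which releases glucose 1-phosphate, was at 281 and 239 CPM in sham, 168 and 146 in PMN and 292 and 135 in metastasis livers. Both PMN livers were below both sham livers for Ugp2 and Pygl.

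Pygl differed by -0.73 ± 0.37 in PMN (log2, adjusted p = 0.258) and -0.28 ± 0.37 in metastasis (adjusted p = 0.638). Ugp2 and Pygl were called lower in PMN in the fit of PMN and sham livers alone, and Pygl was called lower in metastasis without metastasis liver 1 (-0.94, adjusted p = 0.0155). Leaving out metastasis liver 2 instead gave Ugp2 as higher and Gys2 as lower in metastasis. Gys2 held 98.8% to 99.6% of glycogen synthase TPM in 5 of 6 livers and 87.9% in metastasis liver 1, the remainder being the widespread Gys1.

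**Figure D5:**
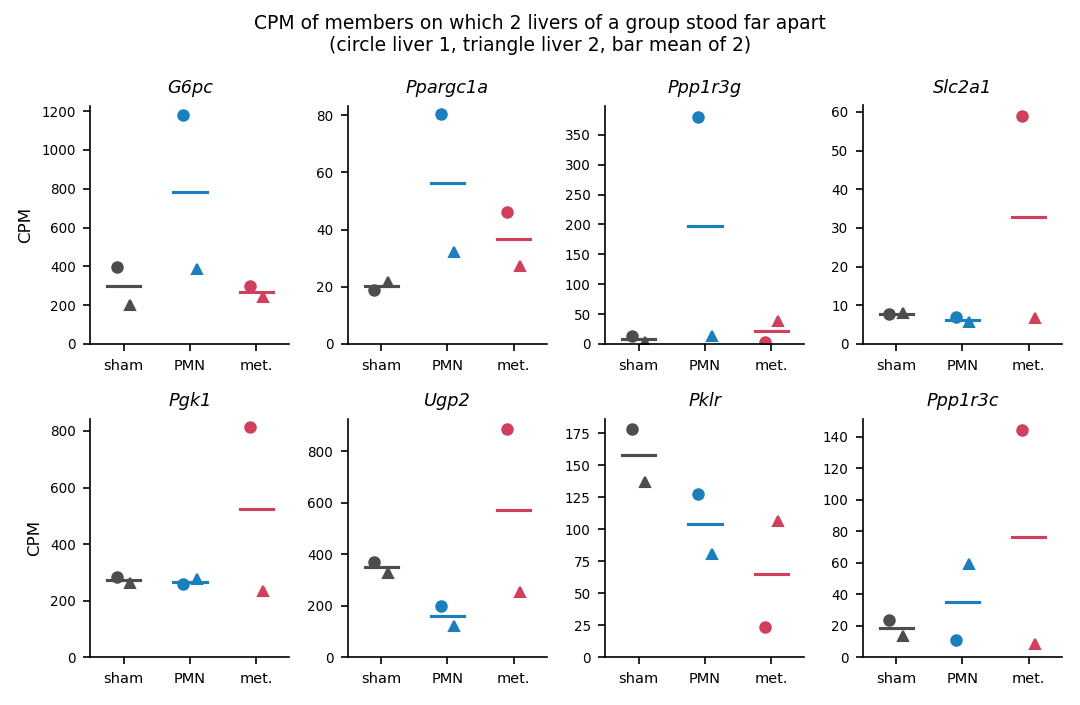
CPM (vertical axis, from 0) of 8 members on which partner livers stood far apart, chosen from their values, with circles for liver 1, triangles for liver 2 and bars for the mean of 2. PMN liver 1 is high for G6pc, Ppargc1a and Ppp1r3g, at 1180, 80.4 and 380.2 CPM, and metastasis liver 1 for Slc2a1, Pgk1, Ugp2 and Ppp1r3c, while it is low for Pklr at 23.7 CPM.

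Partner livers differed most in the metastasis group. The fold between partners was over 2 for 3 of 33 members in sham, 4 in PMN and 19 in metastasis (57.6% of members, against 28.7% of all tested genes). Metastasis liver 1 was the highest of the 6 livers in 21 members, among them 14 of the 15 genes of general glycolysis, where 25.6% of all tested genes had their highest value in it. It exceeded the highest other liver over 2-fold in 11 members (4.20% of all tested genes), namely Slc37a4, Pfkl, Slc2a1, Gpi1, Pfkp, Aldoa, Tpi1, Gapdh, Pgk1, Ugp2 and Ppp1r3c. Metastasis liver 2 was the highest of the 6 in none of the members, against 15.5% of all tested genes. Proliferation markers summed to 17.9 and 12.4 CPM in sham, 30.5 and 38.1 in PMN and 84.5 and 76.0 in metastasis livers, with 5 of 7 called in metastasis. Stellate and fibroblast markers summed to 185 and 169 CPM in sham, 209.8 and 202 in PMN and 343 and 338 in metastasis livers, with 3 of 7 called. Both sums were above sham in both metastasis livers, like 11 of the 15 genes of general glycolysis. Metastasis liver 1 had the highest sums of neutrophil, endothelial, erythroid, proliferation and hepatocyte markers, at 1042, 334, 1737, 84.5 and 190393 CPM. The hepatocyte sum was mostly albumin. The part of each of these markers was not tested.

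Compared directly, metastasis and PMN livers gave no call among the members, nor among all genes (0% higher and 0% lower by edgeR, lowest adjusted p 0.113). At an unadjusted p under 0.05, 11 members were higher and 2 lower in metastasis, against 6.99% and 6.41% of all genes. DESeq2 called 1.55% of all genes higher and 1.81% lower, with 6 members higher (Aldoa, Tpi1, Gapdh, Eno1, Pkm and Ugp2) and 1 lower (Ppp1r3b). The lowest adjusted p among the members, 0.285, was shared by Pkm at 1.79 ± 0.34, Aldoa at 2.01 ± 0.48 and Ppp1r3b at -1.57 ± 0.38 (log2). G6pc was at -1.54 ± 0.57 (adjusted p = 0.349). The median of the 15 genes of general glycolysis was 1.19 against 0.03 over all tested genes, and 9 of the 15 did not overlap, all higher in metastasis (21.9% of all tested genes were higher without overlap and 21.5% lower). That median was 0.42 without metastasis liver 1, with 10 of the 15 fitted above 0, and Pkm, Aldoa and Ppp1r3b were at 1.32, 1.02 and -2.00. Without metastasis liver 2 the same test called 15 members higher and 3 lower (7.53% and 9.02% of all genes). Without metastasis liver 1 it called no member, and 0.137% of all genes higher and 0.176% lower.

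Of 107 further genes of these pathways that were listed, 103 were tested. Among the 14 tested gluconeogenic and shuttle enzymes 0 were called higher and 1 lower in PMN (the mitochondrial pyruvate carrier Mpc2, 216 and 215 CPM in sham and 117 and 96.8 in PMN), and none in metastasis. Among the 10 tested genes of other sugar entry, galactose-1-phosphate uridylyltransferase (Galt) was called lower in PMN, at 30.0 and 35.0 CPM in sham and 11.7 and 12.9 in PMN, and none in metastasis. Of 24 other glycolytic and pyruvate genes, 1 was called higher in PMN and 3 in metastasis, and none lower. These were GLUT3 (Slc2a3), higher in both, and the lactate exporter MCT4 (Slc16a3) and neuronal enolase (Eno2), higher in metastasis.

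Slc2a3 was at 0.394 and 0.226 CPM in sham, 2.55 and 5.69 in PMN and 10.1 and 4.83 in metastasis livers, and rose by 3.72 ± 0.64 and 4.58 ± 0.65 (log2, adjusted p = 0.0267 and 0.0137). Slc16a3 was at 0.172 and 0.136 CPM in sham, 0.891 and 1.42 in PMN and 7.41 and 1.42 in metastasis livers, and rose by 4.81 ± 0.92 in metastasis (adjusted p = 0.0282), or by 3.19 (adjusted p = 0.0220) without metastasis liver 1. Eno2 was at 14.1 CPM in metastasis liver 1, 0.883 in metastasis liver 2 and at most 0.124 in the other 4, and its call (adjusted p = 0.0486) was lost without metastasis liver 1 (adjusted p = 0.128). GLUT3 and MCT4 are transporters known from leukocytes and hypoxic or tumor cells, and which cells carried them here was not tested.

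Of 19 other glycogen genes, Gyg (glycogenin) and Pgm2 were called higher in metastasis and none in PMN. Of 8 pentose phosphate genes, H6pd was called higher in PMN (212 and 176 CPM in sham, 403 and 379 in PMN) and transketolase (Tkt) lower in metastasis (88.6 and 74.6 CPM in sham, 43.9 and 40.9 in metastasis). Of 28 regulators, 2 were called higher and 1 lower in PMN (Stat3, Igfbp1 and the lower Cebpa), and 2 higher and 2 lower in metastasis (Stat3, Igfbp1 and the lower Mlxipl and Irs1). Mlxipl encodes ChREBP, the glucose-sensing activator of Pklr and lipogenic genes, and was at 196 and 139 CPM in sham, 60.6 and 73.3 in PMN and 12.5 and 42.6 in metastasis livers. It fell by 2.61 ± 0.56 in metastasis (log2, adjusted p = 0.0374), and it and Pklr both had their lowest value in metastasis liver 1. The insulin receptor substrate Irs1 fell from 26.6 and 25.01 CPM in sham to 3.24 and 7.02 in metastasis (-2.33 ± 0.39, adjusted p = 0.0204). Without metastasis liver 1 or liver 2 the metastasis values were -1.97 and -3.75 for Mlxipl, -1.87 and -2.99 for Irs1 and 4.91 and 6.51 for Igfbp1, and all stayed called.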

How the data were processed

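Livers of 2 sham, 2 PMN and 2 metastasis mice were profiled by poly(A) RNA sequencing. According to their methods, the authors aligned reads to mm10 with HISAT2 2.1.0 and counted uniquely mapped exonic reads with featureCounts (Subread 2.0.6), and they deposited raw counts per gene and TPM derived from them. The annotation and strand setting are not given in the sources used here. Library totals were 32838321 to 43368309 counts.

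Counts were filtered with filterByExpr (minimum count 10), which kept 16370 of 20140 genes, scaled by TMM and fitted over all 6 livers with edgeR 4.0.16 (quasi-likelihood F test, two-sided, group as the only term) in R 4.3.3, with Benjamini-Hochberg adjustment over all tested genes and a threshold of 0.05. With 2 livers against 2, a permutation test of a single gene cannot reach that threshold. CPM are counts over the TMM-scaled library size. Deposited TPM served for isoenzyme shares, for levels between genes and, with pseudocounts of 1 and 0.1, for limma 3.58.1 as an alternative. Other alternatives were DESeq2 1.42.0, other scalings and filters, fits of 2 groups only, a replicate block, a robust spread, and leaving out each liver. The fit was also run on simulated counts with known changes, and the outcome is not reported here. Members, wider lists and markers were chosen with earlier results of these data known; the members named are all 33, and of the wider lists those called or partner isoenzymes of a member. Some listed genes outside the members are not reported here. Gene positions and promoter windows came from RefSeq tables of GRCm38.p6 (the build of mm10), and shared 50-base stretches and exon overlap from GENCODE M21 transcripts. Motifs were searched on both strands. Python 3.11.15 was used for summaries and figures.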

Additional observations from a re-analysis of the deposited data

Results flagged for a closer look

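For 3 members the 2 tumor groups lay on opposite sides of sham: both PMN livers were below, and both metastasis livers above, both sham livers. The fitted log2 difference of metastasis and PMN livers was 1.26 ± 0.43 for Gpi1, 1.35 ± 0.35 for Tpi1 and 1.66 ± 0.47 for Gapdh. The direct contrast did not call them (adjusted p = 0.330, 0.288 and 0.292 by edgeR), while DESeq2 called Tpi1 and Gapdh. Without metastasis liver 1 the log2 differences of metastasis from sham were 0.20, 0.40 and 0.21 (adjusted p = 0.492, 0.129 and 0.452). Without metastasis liver 2 they were 1.56, 1.44 and 1.75, and the direct contrast was 1.78, 1.78 and 2.23 and called all 3 (adjusted p = 0.00166, 0.00118 and 0.000702). Gapdh shares 82.5% of its 50-base stretches with other transcripts, Gpi1 19.3% and Tpi1 7.51%.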

How the results depend on the processing

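The number of members called moved with the test and with the livers fitted. In PMN against sham (3 higher, 0 lower) DESeq2 gave 6 and 1, the 2 groups alone 9 and 7, library sizes without TMM 1 lower, and limma on log2(TPM + 1) or log2(TPM + 0.1) 1 lower each. Leaving out 1 liver gave 0 to 9 higher and 0 to 7 lower. In metastasis against sham (7 higher, 1 lower) DESeq2 gave 11 and 2, the 2 groups alone 2 and 0, library sizes without TMM 4 lower, and limma 3 and 4 with either pseudocount, 1 or 0.1. Leaving out 1 liver gave 0 to 21 higher and 0 to 5 lower. In metastasis against PMN (0 and 0) DESeq2 gave 6 and 1, and leaving out 1 liver 0 to 15 higher and 0 to 3 lower. A group left with 1 liver was assumed to vary like the others. With a replicate block 4 members were higher and 0 lower in PMN (4.11% and 1.58% of all genes), 8 higher and 1 lower in metastasis (5.83% and 3.38%), and 0 differed between the tumor groups. Livers with the same number did not deviate together (correlations of -0.03, 0.08 and 0.04), so the numbers do not pair them. The log2 fold change in metastasis changed sign when 1 metastasis replicate was left out for Slc2a1 (-0.25 to 2.91), Pygl (-0.94 to 0.17) and Pgam1 (-0.65 to 0.89), and for Pgam1 also with library sizes (-0.000415) and with limma on log2(TPM + 1) and log2(TPM + 0.1) (-0.18 each). It also changed sign without metastasis liver 1 for Pgk1 (0.94 to -0.22), Ugp2 (0.71 to -0.45), Ppp1r3c (2.05 to -1.07) and Gys2 (-0.48 to 0.06), and without metastasis liver 2 for Ppp1r3g (1.25 to -1.14) and G6pc (-0.15 to 0.000976, and 0.44 without sham liver 1). In PMN it changed sign under 1 to 5 of 17 alternatives for Pfkfb1, Pck1, Aldoa, Pfkl, Pgk1, Slc37a4, Ppp1r3b, Gys2 and Ppp1r3c, none of them called. The cause was not tested. The median log2 fold change of all genes moved by -0.26 in PMN and -0.27 in metastasis with library sizes, by -0.11 and -0.19 with log2(TPM + 1) and by -0.18 and -0.30 with log2(TPM + 0.1), and by -0.12 in metastasis against PMN with the last. With 2 livers a group, depth limits few members: Hk2 alone fell below 3 counts in a liver.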
